A study of Mus musculus with 12 samples.

Results

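The genes described here are 42 genes of mitosis and of the G2/M transition of the cell cycle, chosen by symbol from the deposited count table: mitotic kinases, cyclins, spindle checkpoint and kinetochore genes, kinesins, condensin subunits and the transcription factors Foxm1 and Mybl2. All 42 symbols were found among the 55216 rows of the table, and all 42 passed the filter on low counts that left 13177 genes to test. The RNA came from Myc-CaP, an established prostate cancer line from a male FVB/NJ mouse that overexpresses Myc, and was sequenced as poly(A) RNA. The question put to these genes was whether exposure to the platinum drug oxaliplatin (Oxali), to interferon γ (IFNγ) or to both lowers or holds the G2/M programme. Cells were harvested 48 h after treatment, and the 12 libraries form 6 groups of 2: untreated cells (Ctrl), IFNγ at 200 pg (IFN200) or 2000 pg (IFN2000), Oxali at 2 μM (Oxali), and Oxali at 2 μM together with IFNγ at 200 pg (Combo200) or 2000 pg (Combo2000). The labels give the IFNγ doses without a volume. All groups share the one cell line, and the sample labels do not state that the 2 libraries of a group came from separate cultures, so p-values measure only the spread between these libraries, which may be technical.

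Library totals ran from 18749975 to 25931516 counts, and the 2 libraries of each group differed by more than sampling noise (chi-square per degree of freedom 1.71 to 9.15). The titles gave the groups. The agent label conflicts with the title in the single treatments: samples titled IFN200 carry the agent Oxali, those titled IFN2000 carry IFNγ at 200 pg, and those titled Oxali carry IFNγ at 2000 pg. The mean log2 ratio to Ctrl over 14 p53 targets was 0.53 to 0.65 in the 6 libraries titled with Oxali and -0.018 to 0.12 in the other 6. The medians were 0.33 to 0.46 and -0.028 to 0.048. Single targets went both ways, with Fas higher and Bax lower in all 6 libraries with Oxali. Over 10 IFNγ targets the mean was 1.14 to 1.33 in IFN200, 3.66 to 3.72 in IFN2000 and 1.41 to 1.43 in Oxali. Of the single treatments, the libraries titled IFN2000 thus had the highest mean of IFNγ targets and those titled Oxali the highest mean of p53 targets. Among the epithelial markers, Krt8 had 353 to 628 counts, whereas Krt18 had 0 to 5, Cdh1 0 to 6 and Epcam 0 in all 12 libraries, so Krt18, Cdh1 and Epcam were absent or nearly so. Summed T cell markers stood at 0.35 to 0.91 CPM (counts scaled for library size) in the libraries without Oxali, except 6.38 in replicate 2 of IFN2000, and at 2.19 to 2.93 in those with it. Macrophage markers summed to 0.53 to 1.27 CPM without Oxali, except 3.68 in replicate 2 of IFN2000, and to 1.53 to 2.27 with it. Heart muscle markers summed to 0.83 to 1.27 CPM without Oxali, except 7.81 in replicate 1 of IFN200, and to 3.06 to 5.94 with it. Fibroblast markers summed to 9.95 to 17.4 CPM without Oxali and 20.9 to 25.6 with it. All 4 of these lists were thus higher with Oxali, apart from the libraries named.

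Cells enter mitosis when cyclin B activates the kinase Cdk1, which the Cdc25 phosphatases license. Aurora and Polo-like kinases and the kinesins then build the spindle, the spindle checkpoint holds the anaphase-promoting complex (APC/C) in check until all chromosomes are attached, and the APC/C with Cdc20 starts anaphase by removing securin and cyclin B. Most genes of this programme are known to be transcribed together late in the cycle by MuvB complexes, which carry Mybl2 and Foxm1 in cycling cells and the repressive DREAM subunits in resting or p53-activated cells.

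MuvB complexes are known to bind the cell cycle genes homology region (CHR), with the letters TTTGAA, and the factor NF-Y binds the CCAAT box. Both motifs were looked for on both strands in the RefSeq promoters of build GRCm38.p6, from 250 bases before to 50 bases after each gene's start. A promoter was given for 37 of the 42 genes (the other genes are Cdc25c, Aurkb, Kif20a, Tpx2 and Foxm1) and for 27025 genes in all. TTTGAA was found in 26 of the 37 promoters (70.3%) against 18.1% of all promoters. Within 50 bases of the start it was found in 23 (62.2%) against 5.11% of all. CCAAT was found in 29 (78.4%) against 37.9% of all, and 24 (64.9%) held both motifs against 7.12% of all. Among all members 1 TTTGAA overlapped a CCAAT. These letters stood both in genes that Oxali raised and in genes it lowered (below). TTTGAA stood in 10 of the 16 raised genes with a promoter, in 10 of the 14 lowered ones and in 6 of the 7 that were not called. CCAAT stood in 12, 11 and 6 of them, and both motifs in 9, 10 and 5. The sets are small, and a difference between them was not tested. The promoters of Ccnb2 and Plk1, which were lowered, of Aurka and Prc1, which were raised, and of Nusap1, which was raised most and holds neither motif, are given as examples. They are written 5′ to 3′ on the strand of the gene, with TTTGAA and CCAAT in capitals on either strand.
Ccnb2 (chr9:70421505-70421804, minus strand): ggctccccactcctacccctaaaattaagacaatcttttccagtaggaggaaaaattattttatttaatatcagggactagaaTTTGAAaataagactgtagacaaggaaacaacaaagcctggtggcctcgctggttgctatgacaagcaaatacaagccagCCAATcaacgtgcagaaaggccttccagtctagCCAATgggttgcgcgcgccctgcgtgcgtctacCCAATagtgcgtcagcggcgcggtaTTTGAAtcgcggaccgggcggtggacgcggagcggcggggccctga
Plk1 (chr7:122159185-122159484, plus strand): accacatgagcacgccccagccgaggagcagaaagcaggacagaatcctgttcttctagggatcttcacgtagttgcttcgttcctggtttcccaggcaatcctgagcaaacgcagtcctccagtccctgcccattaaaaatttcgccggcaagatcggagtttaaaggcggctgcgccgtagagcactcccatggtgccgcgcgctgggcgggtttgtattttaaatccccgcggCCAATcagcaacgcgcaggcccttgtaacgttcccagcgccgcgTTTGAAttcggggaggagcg
Aurka (chr2:172370521-172370820, minus strand): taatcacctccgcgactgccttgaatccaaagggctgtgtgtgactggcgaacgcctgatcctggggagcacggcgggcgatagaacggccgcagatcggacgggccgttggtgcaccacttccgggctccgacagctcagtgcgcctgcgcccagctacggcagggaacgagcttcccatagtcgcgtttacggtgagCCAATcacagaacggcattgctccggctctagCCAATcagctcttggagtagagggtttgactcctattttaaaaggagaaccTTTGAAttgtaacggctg
Prc1 (chr7:80294201-80294500, plus strand): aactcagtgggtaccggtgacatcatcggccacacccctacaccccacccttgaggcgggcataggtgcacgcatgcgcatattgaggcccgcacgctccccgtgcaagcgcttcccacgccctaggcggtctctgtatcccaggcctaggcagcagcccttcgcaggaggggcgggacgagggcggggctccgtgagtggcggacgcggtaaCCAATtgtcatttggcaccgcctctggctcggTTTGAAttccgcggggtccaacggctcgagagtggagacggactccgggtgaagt
Nusap1 (chr2:119618048-119618347, plus strand): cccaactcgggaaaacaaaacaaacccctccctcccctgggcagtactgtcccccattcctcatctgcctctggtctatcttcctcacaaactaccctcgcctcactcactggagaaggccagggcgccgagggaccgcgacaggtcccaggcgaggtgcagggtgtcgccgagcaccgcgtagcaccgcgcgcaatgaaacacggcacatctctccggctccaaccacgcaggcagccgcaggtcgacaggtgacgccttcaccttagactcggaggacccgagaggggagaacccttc
In Plk1, Aurka and Ccnb2 a TTTGAA lies shortly after the start of the gene with a CCAAT just before the start, and in Prc1 both lie before the start or across it. The letters are a description of these windows and not of binding.

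In untreated cells the most abundant of these transcripts per length was Top2a, the DNA topoisomerase that untangles sister chromatids, with 213 CPM per kb of its longest annotated transcript. Anln, a scaffold of the contractile ring, followed with 157 and Cdc20, the APC/C activator, with 129.8. The least abundant per length were Cenpf (15.0), Mad2l1 (17.5) and Cdc25c (17.7). The place of Mad2l1 rests on its longest annotated transcript of 7557 bases. Without division by length it had 131 to 153 CPM in the libraries without Oxali, against 45.9 to 49.5 for Cdc25c. The 42 genes together took 8549 and 8591 CPM without treatment, 8696 and 8691 with IFN200, 8675 and 8766 with IFN2000, 8937 and 9000.3 with Oxali, 8985 and 8979.6 with Combo200, and 9045 and 9004 with Combo2000. The summed level was thus higher in each of the 6 libraries with Oxali than in the 6 without it. Without Top2a the sum was 7436 to 7557 CPM in the libraries without Oxali and 7532 to 7639 in those with it, which overlap.

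Oxali did not lower the G2/M genes as a block. Against Ctrl, 18 of the 42 genes rose and 16 fell, with a median log2 fold change of 0.023 against 0.017 over all genes tested. The changes ran from -0.52 (Mybl2) to 0.91 (Nusap1) on the log2 scale. The 34 genes called compare with a background of 67.6% of all genes tested (34.8% higher, 32.8% lower), so most genes of the table were called too and the number of calls is no result about these genes. The test was edgeR's quasi-likelihood test with Benjamini-Hochberg adjustment, called under 0.05. In bulk RNA a smaller share of cells in a phase and less RNA per cell cannot be told apart. Scaling moved the balance: with library totals alone the median of all genes shifted by 0.13 on the log2 scale, and 25 members were called higher and 11 lower. Of the 34 calls, 24 (13 higher, 11 lower) kept their direction and their call under all 22 alternative settings, and the other 10 (Ccnb1, Cdc25b, Cdc25c, Nek2, Mad2l1, Birc5, Kif2c, Mki67, Ncapd2 and Ncaph) lost it under at least 1. Summed T cell, macrophage, heart muscle and fibroblast markers were also higher in the libraries with Oxali (above), and their part in these changes was not tested. In those 6 libraries Lck (24 to 40 counts) and Cd28 (20 to 36) made up most of the T cell sum, and the other 6 T cell markers had 0 to 2 counts each, with Cd3d and Cd8a at 0. Tnnt2 (68 to 125 counts) made up most of the heart muscle sum, and Pdgfra (483 to 632) most of the fibroblast sum. Of the macrophage markers Cd68 (20 to 32 counts) was the highest and Csf1r had 8 to 19 counts, against 0 in the 6 libraries without Oxali, while Adgre1 and C1qa were at 0 in all 12.

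**Figure D1:**
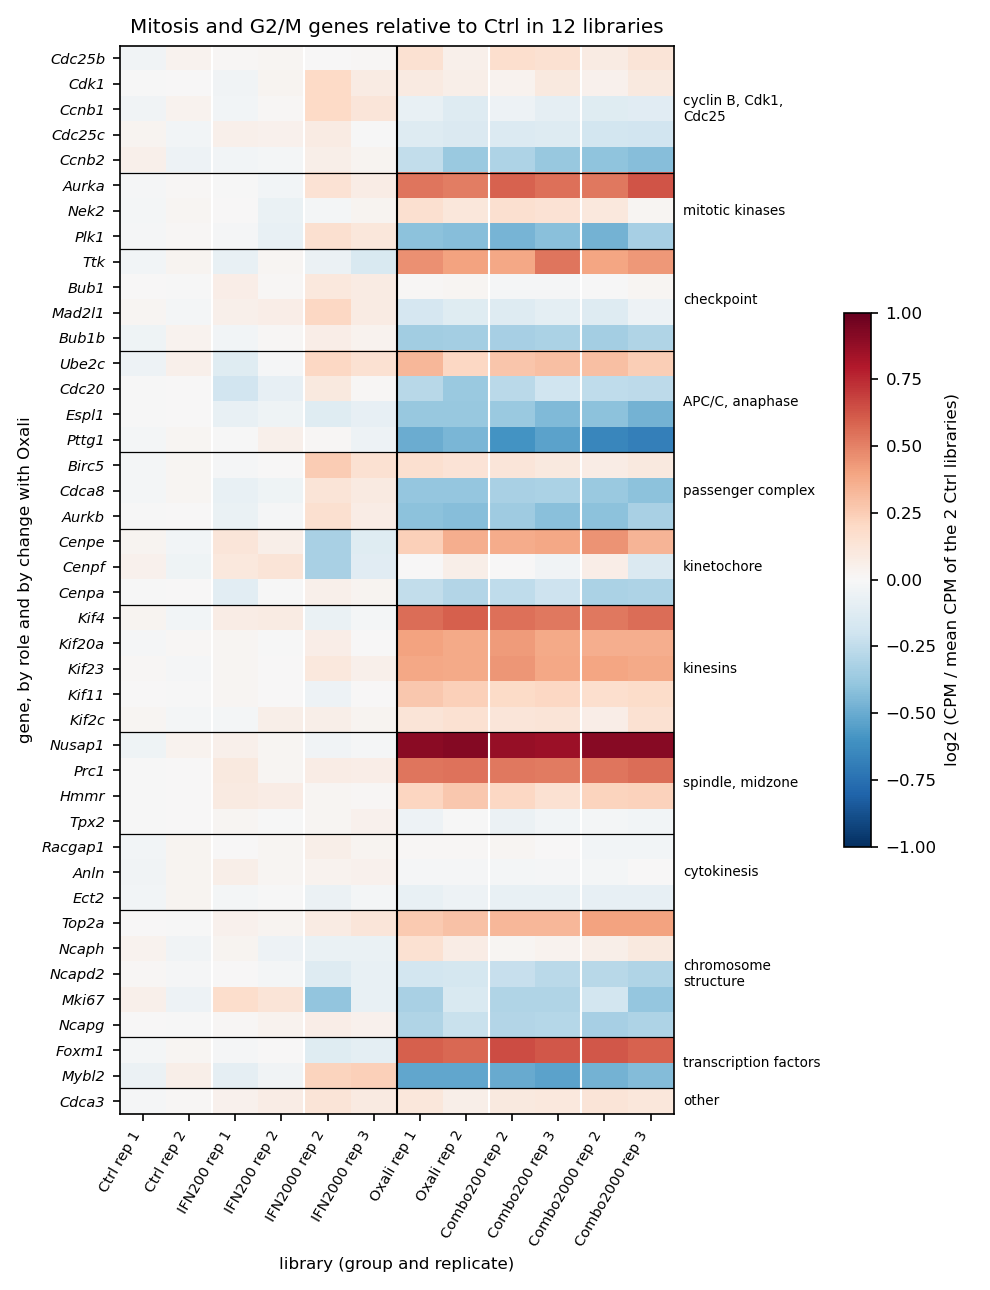
Heat map of the 42 genes (rows, grouped by role and ordered by their change with Oxali) in the 12 libraries (columns); the colour gives log2 of CPM over the mean CPM of the 2 Ctrl libraries. The columns to the right of the black line hold the libraries with Oxali, in which Nusap1 is the most raised gene and every role except the kinesins, spindle proteins, cytokinesis and Cdca3 mixes raised and lowered genes.

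The transcription factors of the programme moved apart. Foxm1, the forkhead factor that drives G2/M genes, was measured at 157 and 162 CPM without treatment, 158 and 160.4 with IFN200, 147 and 149.6 with IFN2000, 242 and 238 with Oxali, 251 and 246 with Combo200, and 246 and 240.3 with Combo2000. Mybl2, the B-Myb protein of the MuvB complex, was measured at 92.2 and 99.9 CPM without treatment, 90.0 and 93.7 with IFN200, 112 and 113 with IFN2000, 66.8 and 67.0 with Oxali, 67.7 and 66.2 with Combo200, and 69.3 and 71.0 with Combo2000. Each library with Oxali had more Foxm1 and less Mybl2 than any library without it. Foxm1 rose 1.5-fold (log2 0.59 ± 0.038 SE, adjusted p = 4.17e-11), and Mybl2 was 1.44-fold lower (log2 -0.52 ± 0.045, adjusted p = 4.08e-09). The ratio of Foxm1 to Mybl2 counts within a library, which no scaling can move, was 1.31 to 1.76 in the 6 libraries without Oxali and 3.38 to 3.71 in the 6 with it. This pair and the other ratios given below were chosen after their values were seen and are a description.

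Among the genes of mitotic entry, Cdk1 itself was not called, at 0.073 ± 0.044 (log2, 95% interval -0.019 to 0.17). Its partner cyclins fell, Ccnb2 more than Ccnb1. Ccnb2 levels were 118 and 110.0 CPM without treatment, 112 and 112 with IFN200, 118 and 116 with IFN2000, 96.0 and 88.2 with Oxali, 91.8 and 87.8 with Combo200, and 86.0 and 84.8 with Combo2000. The 6 libraries with Oxali all lay below the other 6, and the log2 change was -0.31 ± 0.047. Ccnb1 changed by -0.10 ± 0.042 (adjusted p = 0.043), a call lost on leaving out any of 6 libraries and reversed in sign, to 0.027, with library totals alone. The phosphatases Cdc25b (0.10) and Cdc25c (-0.14), which remove the inhibitory phosphates from Cdk1, were called in opposite directions by small amounts. Both calls were lost with another tool, DESeq2, and under some other settings.

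The Aurora and Polo-like kinases went in opposite directions. Aurka, the Aurora kinase of centrosomes and spindle poles, stood at 114 and 116 CPM without treatment, 115 and 113 with IFN200, 127 and 121 with IFN2000, 166 and 163 with Oxali, 173 and 168 with Combo200, and 165 and 178 with Combo2000. Plk1, the Polo-like kinase needed from mitotic entry to cytokinesis, stood at 173 and 175 CPM without treatment, 173 and 166 with IFN200, 195 and 188 with IFN2000, 131 and 129 with Oxali, 126 and 131 with Combo200, and 125 and 138 with Combo2000. The 6 libraries with Oxali lay above the other 6 for Aurka and below them for Plk1. Aurka rose by 0.52 ± 0.044 and Plk1 changed by -0.42 ± 0.046 on the log2 scale (adjusted p = 2.33e-09 and 1.15e-07). Within a library the ratio of Aurka to Plk1 counts was 0.641 to 0.681 without Oxali and 1.26 to 1.37 with it. Nek2, a kinase of centrosome separation, was called at 0.14, a call lost without replicate 1 of Ctrl or of Oxali.

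**Figure D2:**
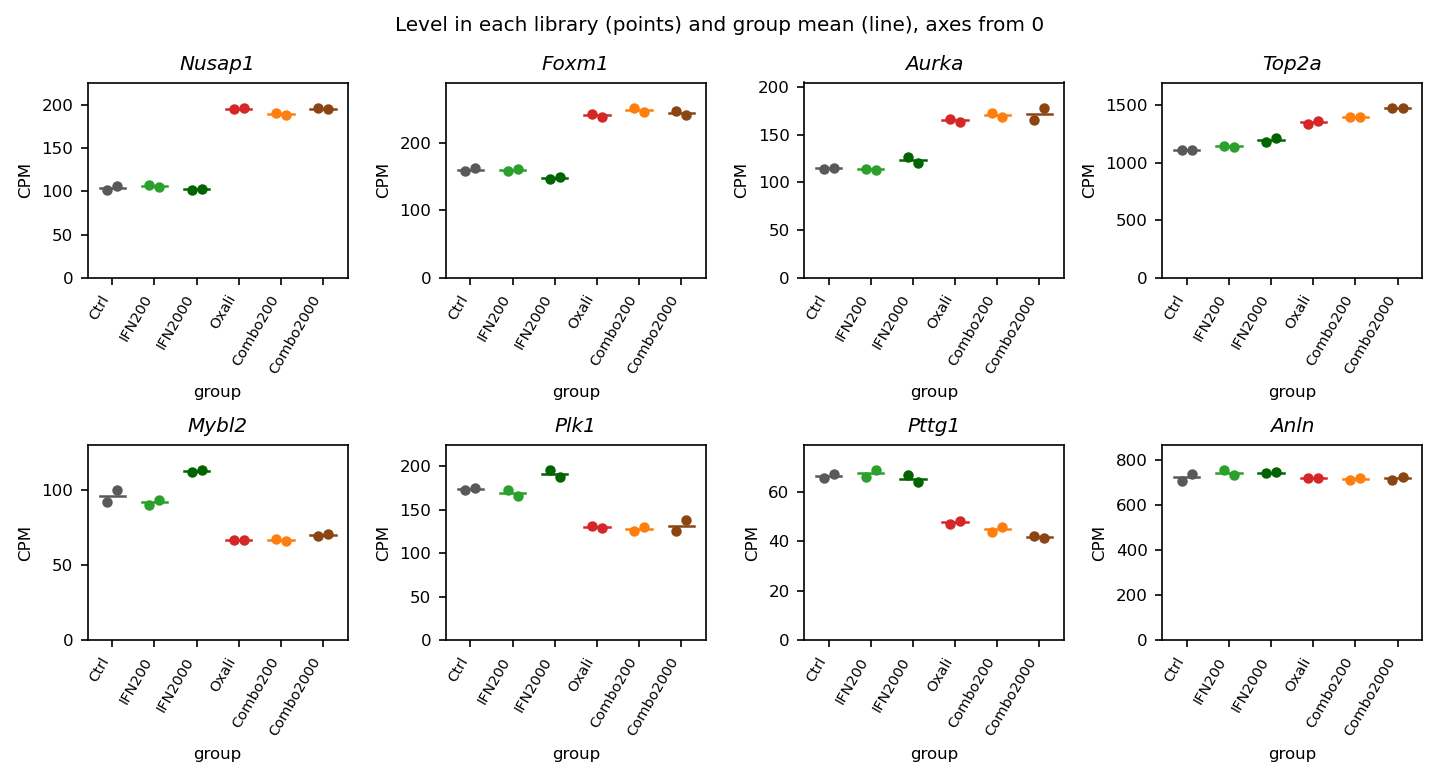
CPM (vertical axes, from 0) in each library (points) and the mean of the 2 libraries (line) in the 6 groups (horizontal axes) for 8 genes. Nusap1, Foxm1 and Aurka lie higher in the 3 groups with Oxali, Mybl2, Plk1 and Pttg1 lie lower there, Top2a is highest in Combo2000, and Anln stays between 708 and 753 CPM.

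Among genes of the spindle assembly checkpoint, Ttk (the Mps1 kinase at its head) and Bub1b (BubR1, which inhibits Cdc20) moved oppositely. Ttk was measured at 62.3 and 64.6 CPM without treatment, 60.2 and 64.2 with IFN200, 61.0 and 57.2 with IFN2000, 87.2 and 83.8 with Oxali, 83.1 and 91.7 with Combo200, and 83.6 and 85.7 with Combo2000. Bub1b was measured at 264 and 279 CPM without treatment, 267 and 275 with IFN200, 285 and 278 with IFN2000, 213 and 214 with Oxali, 216 and 218 with Combo200, and 215 and 221 with Combo2000. Neither gene's range with Oxali overlapped its range without. The log2 changes were 0.43 ± 0.054 for Ttk and -0.35 ± 0.039 for Bub1b. Mad2l1 (Mad2) was called lower at -0.15, a call lost without replicate 1 of Ctrl or of Oxali. The kinase Bub1 was not called (0.017 ± 0.039).

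Downstream of the checkpoint, 3 of the 4 genes of anaphase onset fell and 1 rose. Pttg1 encodes securin, the inhibitor of separase, and stood at 65.5 and 67.2 CPM without treatment, 66.2 and 68.6 with IFN200, 66.8 and 64.0 with IFN2000, 46.9 and 48.4 with Oxali, 43.8 and 45.9 with Combo200, and 42.2 and 41.4 with Combo2000. Espl1 encodes separase, the protease that cuts cohesin, and stood at 140.1 and 141 CPM without treatment, 133 and 136 with IFN200, 129 and 132 with IFN2000, 108 and 108 with Oxali, 108 and 104 with Combo200, and 106 and 101 with Combo2000. Securin and its target separase were thus both lowest in the libraries with Oxali, without overlap. Cdc20 was measured at 232 and 233 CPM without treatment, 204 and 219 with IFN200, 249 and 235 with IFN2000, 192 and 179.7 with Oxali, 193 and 202 with Combo200, and 195 and 194 with Combo2000. The log2 changes with Oxali were -0.48 ± 0.047 for Pttg1, -0.38 ± 0.041 for Espl1 and -0.32 ± 0.046 for Cdc20. Ube2c, the ubiquitin-conjugating enzyme that works with the APC/C, rose by 0.27 ± 0.049.

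The chromosomal passenger complex corrects faulty attachments at the centromere, and 2 of its 3 subunits among the 42 genes fell. Aurkb, its kinase, stood at 129 and 130.3 CPM without treatment, 124 and 129 with IFN200, 145 and 137 with IFN2000, 97.5 and 96.7 with Oxali, 101 and 97.4 with Combo200, and 97.7 and 104 with Combo2000. Cdca8 (borealin) stood at 108 and 111 CPM without treatment, 104 and 106 with IFN200, 120.0 and 117 with IFN2000, 83.8 and 84.1 with Oxali, 87.7 and 87.9 with Combo200, and 84.5 and 82.5 with Combo2000. Both fell in parallel, with log2 changes of -0.42 ± 0.045 and -0.39 ± 0.04. Birc5 (survivin), the third subunit, was measured at 133 and 138 CPM without treatment, 135 and 136 with IFN200, 161 and 151 with IFN2000, 151 and 149 with Oxali, 148 and 145 with Combo200, and 143 and 145 with Combo2000. It was called higher (0.14 ± 0.041, a call lost without replicate 1 of Ctrl), and its highest library was in IFN2000. The 2 Aurora genes thus differed in sign with Oxali, and the ratio of Aurka to Aurkb counts was 0.875 to 0.923 in the libraries without Oxali and 1.69 to 1.73 in those with it.

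At the kinetochore, Cenpa (the centromeric histone) fell and Cenpe (a kinesin that carries chromosomes to the spindle equator) rose. Cenpa stood at 190.4 and 191 CPM without treatment, 177 and 190.4 with IFN200, 198 and 194 with IFN2000, 161 and 156 with Oxali, 160.4 and 166 with Combo200, and 153 and 154 with Combo2000. Cenpe stood at 184 and 177 CPM without treatment, 195 and 188 with IFN200, 144 and 165 with IFN2000, 213 and 232 with Oxali, 233 and 235 with Combo200, and 247 and 228 with Combo2000. Both libraries of Oxali lay below both of Ctrl for Cenpa and above them for Cenpe. Of all genes tested 40.6% lay below and 42.8% above in this way. The log2 changes were -0.27 ± 0.041 for Cenpa and 0.30 ± 0.057 for Cenpe. Cenpf, a large protein of the outer kinetochore, was not called (0.029 ± 0.063).

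Of the roles with called genes, the kinesin motors were the most uniform: all 5 listed here were called higher with Oxali (background 34.8%). This holds for the kinesins chosen, since among the further mitosis genes (below) the kinesin Kif18a rose and the kinesin Kif14 fell. Kif4, a chromosome-bound motor that also serves the midzone, stood at 117 and 113 CPM without treatment, 121 and 122 with IFN200, 109.9 and 113 with IFN2000, 169 and 174 with Oxali, 168 and 165 with Combo200, and 166 and 169 with Combo2000. Its 6 libraries with Oxali all lay above the rest, and it rose 1.49-fold (log2 0.58 ± 0.039). Kif20a (0.39) and Kif23 (0.38), motors of the central spindle, Kif11 (0.26), which pushes the spindle poles apart, and Kif2c (0.14), which takes microtubules apart at centromeres, rose less. The smallest of these, Kif2c, lost its call without replicate 2 of Ctrl or of Oxali. Whether counting used the strand is not stated in the sources used here, and Kif20a shares 1271 exonic bases (29.3% of its exons) with Cdc23 on the opposite strand and Kif4 shares 832 with Pdzd11, so a part of their counts is uncertain.

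The spindle and midzone proteins held the largest rise. Nusap1, a microtubule-bundling protein around chromosomes, stood at 101 and 107 CPM without treatment, 107 and 105 with IFN200, 101 and 103 with IFN2000, 195 and 196 with Oxali, 190.3 and 188 with Combo200, and 196 and 195 with Combo2000. The levels with Oxali lay between 188 and 196 CPM and those without between 101 and 107. The rise over Ctrl was 1.88-fold (log2 0.91 ± 0.039, 95% interval 0.83 to 0.99). Prc1, which crosslinks the antiparallel microtubules of the midzone and is the cargo of Kif4, rose by 0.54 ± 0.038, and Hmmr, a spindle pole protein, by 0.24 ± 0.038. On the opposite strand, Prc1 shares 911 exonic bases (11.1% of its exons) with Rccd1 and Nusap1 shares 172 (4.24%) with Oip5. A part of their counts is therefore uncertain too. Tpx2, the activator of Aurora A on the spindle, was not called (-0.025 ± 0.036) although its partner Aurka rose. Its sign turned, to 0.10, with library totals alone.

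None of the 3 genes placed under cytokinesis was called. Genes with a part in cytokinesis that were placed under other roles, such as Plk1 and Kif23, were called (above). Anln, Ect2 (the exchange factor that switches on RhoA) and Racgap1 (the partner of Kif23 in centralspindlin) had log2 changes of -0.0098, -0.063 and 0.012 and 95% intervals of -0.078 to 0.059, -0.14 to 0.012 and -0.062 to 0.086. Ect2 had the largest difference of the 3 and stood at 338 and 349.6 CPM without treatment, 339 and 342 with IFN200, 329 and 339 with IFN2000, 327 and 331 with Oxali, 327 and 326 with Combo200, and 324 and 325 with Combo2000. With library totals alone the value of Anln turned to 0.12, and with a correction for transcript length and GC content (below) Ect2 was called lower. Cdca3, placed outside the other roles, was also not called, except with that correction and some other settings. It stood at 81.3 and 82.9 CPM without treatment, 84.5 and 86.4 with IFN200, 89.8 and 87.4 with IFN2000, 88.7 and 85.4 with Oxali, 88.1 and 88.4 with Combo200, and 89.6 and 88.8 with Combo2000.

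Chromosome structure genes were mixed. Top2a was measured at 1113 and 1111 CPM without treatment, 1145 and 1134 with IFN200, 1177 and 1213 with IFN2000, 1334 and 1361 with Oxali, 1397 and 1397 with Combo200, and 1472 and 1473 with Combo2000. It rose by 0.28 ± 0.029 with Oxali, and every library of the 6 with Oxali was above every library without. Mki67, which encodes the proliferation marker Ki-67 that coats mitotic chromosomes, stood at 643 and 599 CPM without treatment, 702 and 679 with IFN200, 473 and 589 with IFN2000, 495 and 559.9 with Oxali, 505 and 504 with Combo200, and 546 and 475 with Combo2000. Its libraries scattered more than those of any other gene here (SE 0.077 against 0.029 to 0.063 for the other 41), and the call (-0.23) was lost without replicate 1 of Ctrl or of Oxali. Ncapg, a condensin subunit, stood at 115 and 114 CPM without treatment, 115 and 117 with IFN200, 119 and 118 with IFN2000, 92.6 and 97.8 with Oxali, 93.1 and 93.9 with Combo200, and 90.5 and 92.4 with Combo2000. Of the 3 condensin I subunits among the 42 genes, Ncapg (-0.26 ± 0.041) and Ncapd2 (-0.18 ± 0.037) fell and Ncaph (0.11 ± 0.042) was called higher. Ncapg shares 944 exonic bases with Lcorl on the opposite strand.

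The effect of Oxali was measured in 3 comparisons that have no library in common: Oxali against Ctrl, Combo200 against IFN200 and Combo2000 against IFN2000. In the second, 17 members were called higher and 14 lower, where the background was 69.9% of all genes tested (36.5% higher, 33.5% lower). In the third, 14 were higher and 17 lower (background 72.3%, 38.5% higher and 33.8% lower). Cenpe, Hmmr, Kif4, Kif23, Kif20a, Kif11, Nusap1, Top2a, Ttk, Prc1, Foxm1 and Aurka, 12 in all, were called higher in all 3 comparisons, as were 29.6% of all genes tested. Ncapg, Ccnb2, Cdc25c, Plk1, Mybl2, Bub1b, Cenpa, Aurkb, Espl1, Ncapd2, Mad2l1, Cdca8 and Pttg1, 13 in all, were called lower in all 3, as were 26.9% of all genes tested. Nusap1 measured 0.91, 0.83 and 0.94 on the log2 scale in the 3 comparisons, Mybl2 -0.52, -0.46 and -0.68, and Pttg1 -0.48, -0.59 and -0.64. Between the first and second comparison 39 of the 42 genes had the same sign, and Pearson's r across genes was 0.97 (genes are not independent replicates, and no p is given). Between the first and the third 38 had the same sign (r = 0.96), and between the second and the third 39 (r = 0.93). The exception called in both directions was Birc5, at 0.14 and 0.12 in the first pair of comparisons and -0.12 in Combo2000 against IFN2000, where library totals alone gave 0.0026. With library totals alone the split was 21 higher and 11 lower in Combo200 against IFN200 and 21 and 14 in Combo2000 against IFN2000. The correction for transcript length and GC content (below) moved the split the other way. It gave 15 higher and 16 lower in Combo200 against IFN200 and 13 and 22 in Combo2000 against IFN2000.

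**Figure D3:**
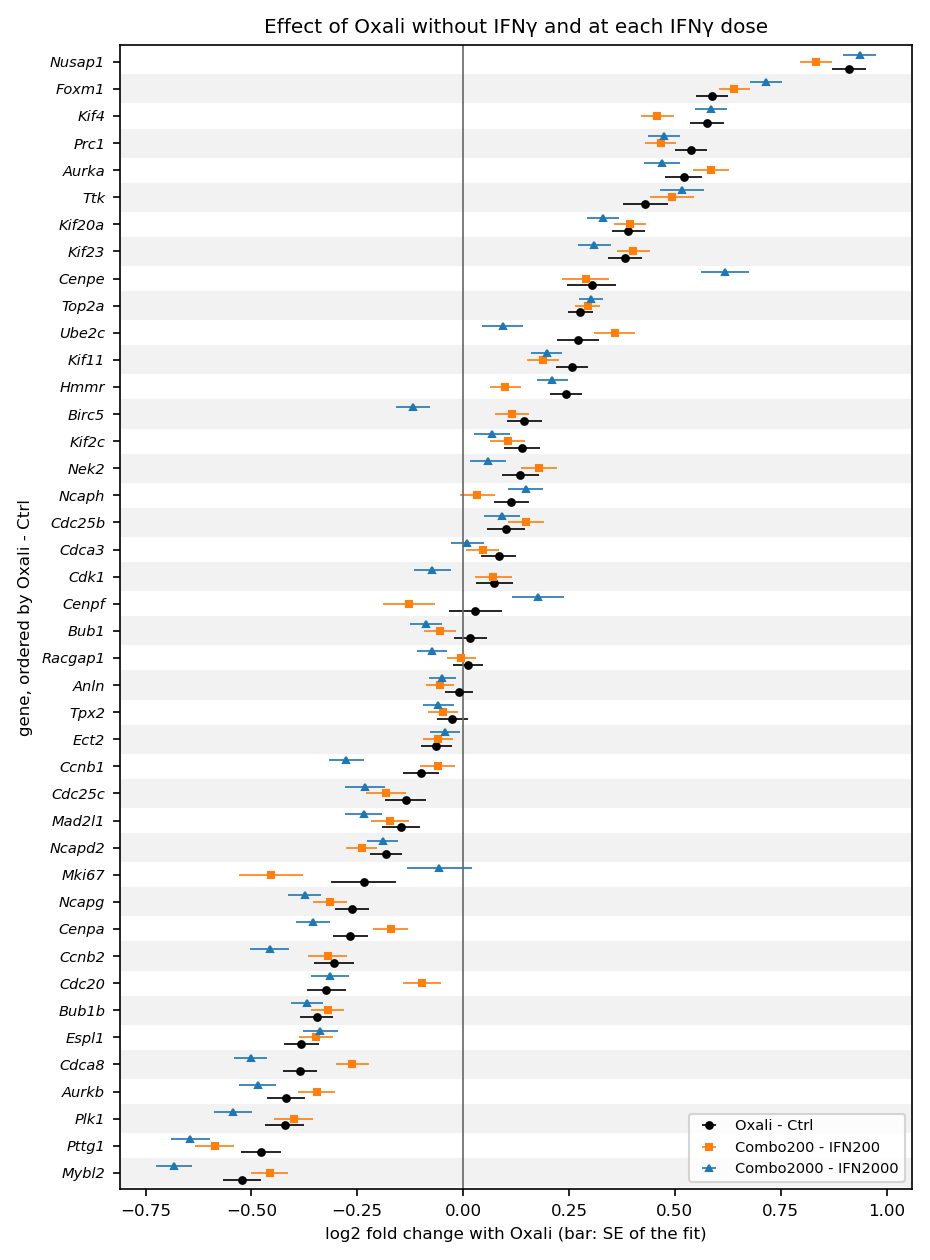
Log2 fold change with Oxali (horizontal axis, bars ± SE of the fit) of the 42 genes (rows) in the 3 comparisons that share no library. The points of a gene lie close together over most of the range from -0.68 (Mybl2) to 0.94 (Nusap1), and those of Mki67, Cenpe, Cenpf and Ube2c are spread widest.

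Over all 12 libraries, 14 genes had their lowest library with Oxali above their highest library without it, 15 had the reverse order and 13 overlapped, where the background was 31.8% above and 28.9% below. Ratios of counts within a library need no scaling, but the pairs below were chosen after their values were seen and are only a description. The ratio of Nusap1 to Pttg1 counts was 1.52 to 1.62 in the libraries without Oxali and 4.05 to 4.71 in those with it. The ratio of Kif23 to Cdca8 counts was 0.968 to 1.06 without Oxali and 1.62 to 1.72 with it.

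IFNγ at 200 pg moved none of the 42 genes past the test (0 called by edgeR and 0 by DESeq2, 2 with an unadjusted p under 0.05, background 0.114%, all of them higher). The 95% intervals of the members ran from -0.23 to 0.31 on the log2 scale, the widest being that of Mki67, which sets the size of change that these libraries could have missed.

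IFNγ at 2000 pg called 11 of the 42 genes, 8 higher and 3 lower (background 16.9%, 8.39% higher and 8.47% lower), with a median of 0.041 against 0.00052 over all genes. The genes that rose were Mybl2 (0.23 ± 0.043), Birc5 (0.20 ± 0.041), Ube2c (0.18 ± 0.049), Ccnb1 (0.16 ± 0.042), Mad2l1 (0.15 ± 0.045), Cdk1 (0.14 ± 0.044), Plk1 (0.14 ± 0.045) and Top2a (0.10 ± 0.029). The genes that fell were Mki67 (-0.23 ± 0.076), Cenpe (-0.22 ± 0.058) and Cenpf (-0.21 ± 0.063). Mybl2 and Plk1 were thus higher with IFNγ at 2000 pg and lower with Oxali. The 3 genes that fell have the longest transcripts of the 42, of 10061, 7910 and 11130 bases. Over 13043 genes the log2 ratio to Ctrl fell with transcript length in both IFN2000 libraries (Spearman's rho -0.35 in replicate 2 and -0.19 in replicate 3, across genes) and not in the other treated libraries (0.042 to 0.15). After offsets that take out each library's trend with length and GC content, 9 genes were called higher and 1 lower: the 8 above kept their call, Cdca8 joined them (0.11 ± 0.037), Cenpe stayed at -0.11 ± 0.037, and Cenpf (-0.044) and Mki67 (-0.068) were no longer called. These calls depend on single libraries: 0 members were called without replicate 1 of Ctrl, 5 without replicate 2 of Ctrl, 3 without replicate 2 of IFN2000, and 7 without either Combo200 library. With RLE or upper-quartile scaling 11 were higher and 2 lower. Replicate 2 of IFN2000 also held Ptprc (64 counts), a gene of all leukocytes, and Cd4 (33 counts), both at 0 in replicate 3, and their part in these values was not tested.

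**Figure D4:**
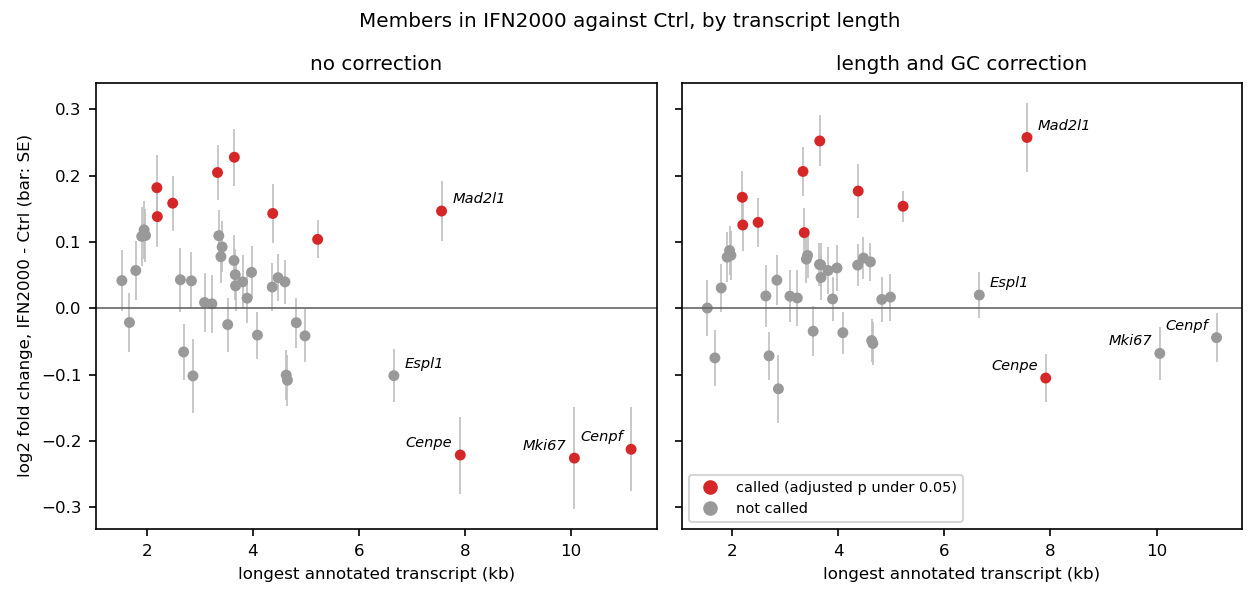
Log2 fold change of IFN2000 against Ctrl (vertical axis, bars ± SE) by length of the longest annotated transcript in kb (horizontal axis) for the 42 genes, without (left) and with (right) the correction for length and GC content; red points were called. Cenpe, Mki67 and Cenpf lie at -0.21 to -0.23 on the left and at -0.044 to -0.11 on the right.

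Measured without the Ctrl libraries, IFN2000 against IFN200 called 14 members, 10 higher and 4 lower (background 22.3%, 11.3% higher and 11% lower). The largest rise was again that of Mybl2 (0.29 ± 0.042) and the largest falls were those of Mki67 (-0.38), Cenpf (-0.33) and Cenpe (-0.31). This comparison shares the IFN2000 libraries, and their length trend, with the last one. The trend of the IFN200 libraries had the opposite sign (rho 0.15 and 0.071). With the correction for length and GC content 12 members were called higher and 2 lower. Aurka, Cenpf and Kif4 lost their calls, and Mad2l1, Cenpa and Top2a gained one. Leaving out replicate 2 of IFN2000 left 7 calls, and leaving out replicate 1 of IFN200 left 8.

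Adding IFNγ to Oxali changed few of the genes. Combo200 against Oxali called 0 of 42 by edgeR and 0 by DESeq2 (1 with an unadjusted p under 0.05, background 1.83%, 1.58% higher and 0.25% lower), and the log2 differences ran from -0.089 to 0.090. Combo2000 against Oxali called Top2a higher (0.13 ± 0.029, adjusted p = 0.01) and Pttg1 lower (-0.19 ± 0.049, adjusted p = 0.0299), 2 of 42 against a background of 4.36% (3.37% higher, 0.987% lower). For both genes the values of Combo200 lay between those of Oxali and Combo2000, as their library values above show. Neither call was made without replicate 1 of Oxali or without replicate 2 of Combo2000, and Pttg1 also lost its call without replicate 2 of Oxali, replicate 2 of Combo200 or replicate 3 of Combo2000. Combo2000 against Combo200 called 0 by edgeR and 0 by DESeq2 (3 with an unadjusted p under 0.05, background 1.37%, 1.21% higher and 0.167% lower). Against Ctrl the combinations called 33 members (18 higher, 15 lower, background 68.7%, 35.6% and 33.1%) at 200 pg and 32 (16 and 16, background 69.2%, 35.7% and 33.5%) at 2000 pg, and these comparisons share the Ctrl libraries with Oxali against Ctrl. With library totals alone the split at 2000 pg was 24 higher and 12 lower.

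The interaction asks whether the log2 effect of IFNγ differs with Oxali present. At 200 pg 0 members were called by edgeR and 0 by DESeq2 (4 with an unadjusted p under 0.05, background 0.698%, 0.562% higher and 0.137% lower). At 2000 pg 2 were called (background 2.72%, 2.12% higher and 0.6% lower). Birc5 rose with IFNγ alone (0.20) and stood at -0.059 when IFNγ was added to Oxali, an interaction of -0.26 ± 0.058 (adjusted p = 0.0158). Cenpe fell with IFNγ alone (-0.22) and stood at 0.093 on top of Oxali, an interaction of 0.31 ± 0.081 (adjusted p = 0.0405). Both rest on the same IFN2000 and Ctrl libraries as the comparisons above: 0 members were called without replicate 1 of Ctrl, replicate 2 of IFN2000, replicate 1 of Oxali or replicate 2 of Combo2000, 1 without replicate 2 of Ctrl or any library of IFN200 or Combo200, and 5 without replicate 3 of IFN2000.

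Other genes of the pathway were read from lists chosen with earlier results of these data known. Of 74 further mitosis genes, 34 were higher and 20 lower with Oxali (background 34.8% and 32.8%), with a median of 0.072 against 0.017 over all genes tested. Dlgap5, a spindle protein, rose by 0.75 ± 0.044, Fbxo5 (Emi1, an APC/C inhibitor) by 0.70 ± 0.049, Zwilch, of the kinetochore complex that recruits dynein, by 0.64 ± 0.046 and the kinesin Kif18a by 0.57 ± 0.06. Stag1, a cohesin subunit, changed by -0.74 ± 0.045, Ccnf (cyclin F) by -0.66 ± 0.047, the APC/C subunit Anapc1 by -0.56 ± 0.04 and the kinesin Kif14 by -0.48 ± 0.052. By role, the kinetochore and checkpoint genes held 13 higher and 2 lower of 19, and condensin and cohesin genes 1 higher (Ncapg2, 0.16) and 5 lower of 11. Mastl (Greatwall kinase) rose by 0.39 among the mitotic entry genes, and the largest falls in the other roles were those of Gtse1 (-0.36) and Knl1 (-0.33). With IFNγ at 2000 pg 8 of the 74 were higher and 4 lower (background 8.39% and 8.47%), and with IFNγ at 200 pg 0 were called by edgeR (1 with an unadjusted p under 0.05).

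A list of 22 genes held inhibitors of mitotic entry and subunits of the DREAM and MuvB complexes, of which the MuvB core serves both repression and activation of the programme. Of these, 21 were tested, and with Oxali 12 were higher and 4 lower (background 34.8% and 32.8%), with a median of 0.19. Cdkn1a (p21, a Cdk inhibitor and p53 target) rose by 1.02 ± 0.06 and measured 0.94 in Combo200 against IFN200 and 0.79 in Combo2000 against IFN2000. Wee1, the kinase that inhibits Cdk1, rose by 0.33 ± 0.053. Sfn (14-3-3σ) was called at 1.45 ± 0.59 on 2 to 14 counts a library. Chek2, a DNA damage kinase, changed by -0.42 ± 0.057. Of the DREAM and MuvB subunits 4 were higher and 2 lower of 10, which is near that background for the rises, with the largest rise and fall in Lin9 (0.31 ± 0.056) and Rbl1 (p107, -0.47 ± 0.043). The NF-Y subunits, which bind the CCAAT box, were all called lower, with log2 changes of -0.19 ± 0.046 (Nfya), -0.41 ± 0.057 (Nfyb) and -0.50 ± 0.061 (Nfyc). In Combo200 against IFN200 and in Combo2000 against IFN2000 they measured -0.22 and -0.25 (Nfya), -0.45 and -0.63 (Nfyb), and -0.33 and -0.56 (Nfyc).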

How the data were processed

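RNA-seq libraries (poly(A) RNA, a stranded kit) of Myc-CaP cells were sequenced in 6 groups of 2. The authors deposited raw counts per gene symbol in 1 table. The study's methods name STAR, build GRCm38, GENCODE and featureCounts, while the submitters' processing notes name STAR 2.7.3a and RSEM 1.3.0, and whether strand was used in counting is not given in the sources used here. All 12 libraries (18749975 to 25931516 counts) entered 1 fit of edgeR's quasi-likelihood test (edgeR 4.0.16, limma 3.58.1, R 4.3.3) with TMM scaling, after filterByExpr (minimum count 10, total 15) left 13177 genes. 13 contrasts were tested, each with Benjamini-Hochberg adjustment over all genes tested and a threshold of 0.05. CPM values use TMM library sizes. With 2 against 2 libraries an exact permutation test cannot go below p = 0.333, so none was run.

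Groups came from the sample titles. The genes and lists were chosen with earlier results of these data known. Every library's value was given for the gene of each role with the largest change with Oxali, for up to 12 genes called lower with it, and for genes called in Combo2000 against Oxali or in an interaction, and in the other lists the largest called rise and fall of each role were named with Cdkn1a, Wee1, Lin9 and Nfya. Transcript lengths and coordinates were read from GENCODE vM21, which uses GRCm38 too but is newer (53566 symbols matched), and promoters from RefSeq (GRCm38.p6). The scripts were tested on simulated data. The 22 alternatives changed the scaling, the filter, the tool (DESeq2 1.42.0), the samples fitted, the replicate block, a correction for transcript length and GC content, and left out each library in turn. Same-numbered libraries did not deviate together (r from -0.046 to 0.017), so no pairing was used. A marker of the epithelial list is not reported here.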

Additional observations from a re-analysis of the deposited data

Results flagged for a closer look

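At 2000 pg the effect of IFNγ differed between cells with and without Oxali for 6 genes of the lists read here. The test was edgeR's test of the interaction, with Benjamini-Hochberg adjustment over all genes. The lists held 42, 74, 22, 34 and 3 (NF-Y) genes, and 2.72% of all genes tested were called, so the number of calls is no result about these lists. Birc5 had an interaction of -0.26 on the log2 scale, with 0.20 for IFNγ alone and -0.059 for IFNγ added to Oxali. Cenpe had an interaction of 0.31 (-0.22 alone and 0.093 added). Numa1, a spindle pole protein, had 0.32 (-0.37 and -0.042, adjusted p = 0.00957). Cdc25a, a Cdk-activating phosphatase, had -0.28 (0.21 and -0.074, adjusted p = 0.0216). Cdkn1b (p27, a Cdk inhibitor) had 0.22 (-0.33 and -0.11, adjusted p = 0.041). E2f4, a DREAM subunit, had -0.22 (0.22 and -0.00092, adjusted p = 0.0425). With the correction for transcript length and GC content the interaction of Birc5 was -0.27 and that of Cenpe 0.22, both still called. Both calls were lost when single libraries were left out (above). The other 4 genes use the same IFN2000 libraries. For these 4 the part of the length trend and the dependence on single libraries were not tested.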

How the results depend on the processing

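Over the 42 genes, 13 contrasts and 22 alternatives, 11547 of 12012 values kept their side of the threshold, 324 lost the call and 126 gained one. The other 15 turned their sign and were called under the main or the alternative setting, all 15 with library totals alone. A turn of sign in a value called under neither setting was not counted and falls among the 11547. In Oxali against Ctrl the 15 included Ccnb1 (0.027), Tpx2 (0.10) and Anln (0.12). In the comparisons with a combination they were values of Bub1, Mad2l1, Anln, Tpx2, Ect2, Racgap1 and Birc5. Calls among the 42 genes in IFN200 against Ctrl went from 0 to 1 with no filter and with only the groups compared. In IFN2000 against Ctrl they went from 11 to 7 with only the groups compared. In Combo2000 against Oxali they went from 2 to 1 with DESeq2, with no filter and with only the groups compared. The interaction at 200 pg went from 0 to 2 with no filter, and that at 2000 pg from 2 to 1 with upper-quartile scaling and with only the groups compared. Leaving out 1 library gave 0 to 15 calls in IFN2000 against Ctrl, 28 to 34 in Oxali against Ctrl, 28 to 34 and 27 to 33 in Combo200 and Combo2000 against Ctrl, 28 to 33 in both Combo200 against IFN200 and Combo2000 against IFN2000, 7 to 14 in IFN2000 against IFN200, 0 to 2 in Combo2000 against Oxali, 0 to 5 in the interaction at 2000 pg and 0 in IFN200 against Ctrl, Combo200 against Oxali, Combo2000 against Combo200 and the interaction at 200 pg. A group left with 1 library was assumed to vary like the others. The cause of these changes was not tested.

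With the replicate number as a block, calls were 2 in IFN2000 against Ctrl (7 with the length and GC correction too), 9 in IFN2000 against IFN200, 0 in Combo2000 against Oxali and 1 in the interaction at 2000 pg, and 32 in Oxali against Ctrl. The libraries share only a number.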

Other observations

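Genes of DNA replication and the G1/S transition, which act before mitosis in the cycle, were read as well. With IFNγ at 2000 pg, 13 of the 34 were called higher and 0 lower by edgeR, with a median log2 fold change of 0.12 against 0.00052 over all genes and a background of 8.39% called higher. Among them were Ccne1 (cyclin E, 0.29 ± 0.065), Mcm5, a subunit of the replicative helicase (0.23 ± 0.04), Rrm2, of ribonucleotide reductase (0.22 ± 0.035), and Pcna, the polymerase clamp (0.20 ± 0.043). The list's median log2 ratio to Ctrl was 0.15 and 0.083 in the IFN2000 libraries, against -0.025 and 0.025 in the Ctrl libraries. In this comparison the calls of the G2/M genes depended on single libraries (above). For the replication genes that dependence was not tested. The part of the length trend and of the leukocyte transcripts in their values was not tested either. With Oxali 12 were higher and 12 lower, near the background of 34.8% and 32.8%, with the largest rise in Cdc45 (0.65 ± 0.045) and the largest fall in Fen1 (-0.48 ± 0.16). With IFNγ at 200 pg 0 were called by edgeR (1 with an unadjusted p under 0.05).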
